A study of Mus musculus with 6 samples.

Results

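The genes described here are 33 markers of the haematopoietic stem cell: surface antigens used to sort it, regulators that maintain it, and genes linked to its resting state. They were taken by symbol from a table of 24421 gene rows, where each of the 33 has a row, and all 33 had enough counts to be tested among 13548 genes. The RNA came from mouse bone marrow cells of the C57BL/6 strain that lack lineage antigens and carry the receptor c-Kit, called LK cells. One group was wild type and the other carried ASXL1-MT-KI, a knock-in of mutant ASXL1. Both came from littermates 8 to 12 weeks old, with 3 libraries a group, which the design text calls biologically independent. ASXL1-MT-KI cells are called knock-in cells from here on. No treatment is named, and the promoter and cell type that drive the mutant allele, and whether a library was 1 animal, are not stated in the sources used here. Libraries held 40462168 to 47579480 gene counts.

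Stem cells are the rare cells of the marrow that renew themselves for life and give rise to all blood lineages. They rest most of the time, and transcription regulators such as EVI1 (gene Mecom), HLF and PRDM16 are needed to keep the pool. No single antigen defines them: in the mouse they are recognised by combinations such as Sca-1, EPCR and CD150 present with CD48 and CD34 low or absent. The LK gate is mostly made up of more committed progenitors, so counts of a stem cell gene in it come from few cells unless progenitors express the gene too. In bulk RNA, fewer cells of a type and less RNA per cell cannot be told apart.

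Among the 33 markers, 12 were lower and 2 were higher in knock-in cells, and 19 did not pass the test. Those that fell were Procr, Hmga2, Ly6a, Mecom, Mmrn1, Robo4, Eya1, Hlf, Angpt1, Tie1, Cd34 and Cd93, and those that rose were Fgd5 and Prdm16. The 33 include Cd34 and Cd48, whose antigens are low or absent on stem cells, so the counts mix markers of both kinds. The falls ran from 2.71-fold for Procr to 1.15-fold for Cd93, and the rises were 1.86-fold and 1.60-fold. The test was edgeR's quasi-likelihood test over all genes with Benjamini-Hochberg adjustment, and a gene passed at an adjusted p under 0.05. Of all genes tested, 7.69% were lower and 8.29% higher by the same rule, 16% together. The median log2 fold change was -0.20 over the 33 markers and 0.00 over all genes tested. With total counts as the scale in place of TMM factors, the calls were 9 lower and 3 higher, beside 5.66% and 11.5% of all genes. Without knock-in replicate 2 the markers that passed as lower numbered 7, beside 4.26% of all genes. The libraries numbered 3 differed from numbers 1 and 2 in both groups, with neutrophil genes higher by a median of 1.21 and macrophage genes by 1.14 on the log2 scale. Numbers 1 and 2 alone gave 10 markers lower and 2 higher, beside 8.21% and 9.61% of all genes. Of the 14 markers that passed, 7 lower and 2 higher also had a fold of at least 1.5, against 2.83% and 3.72% of all genes. When the replicate number was added as a block, 17 markers were lower and 4 higher, beside 13.8% and 16.7% of all genes.

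**Figure D1:**
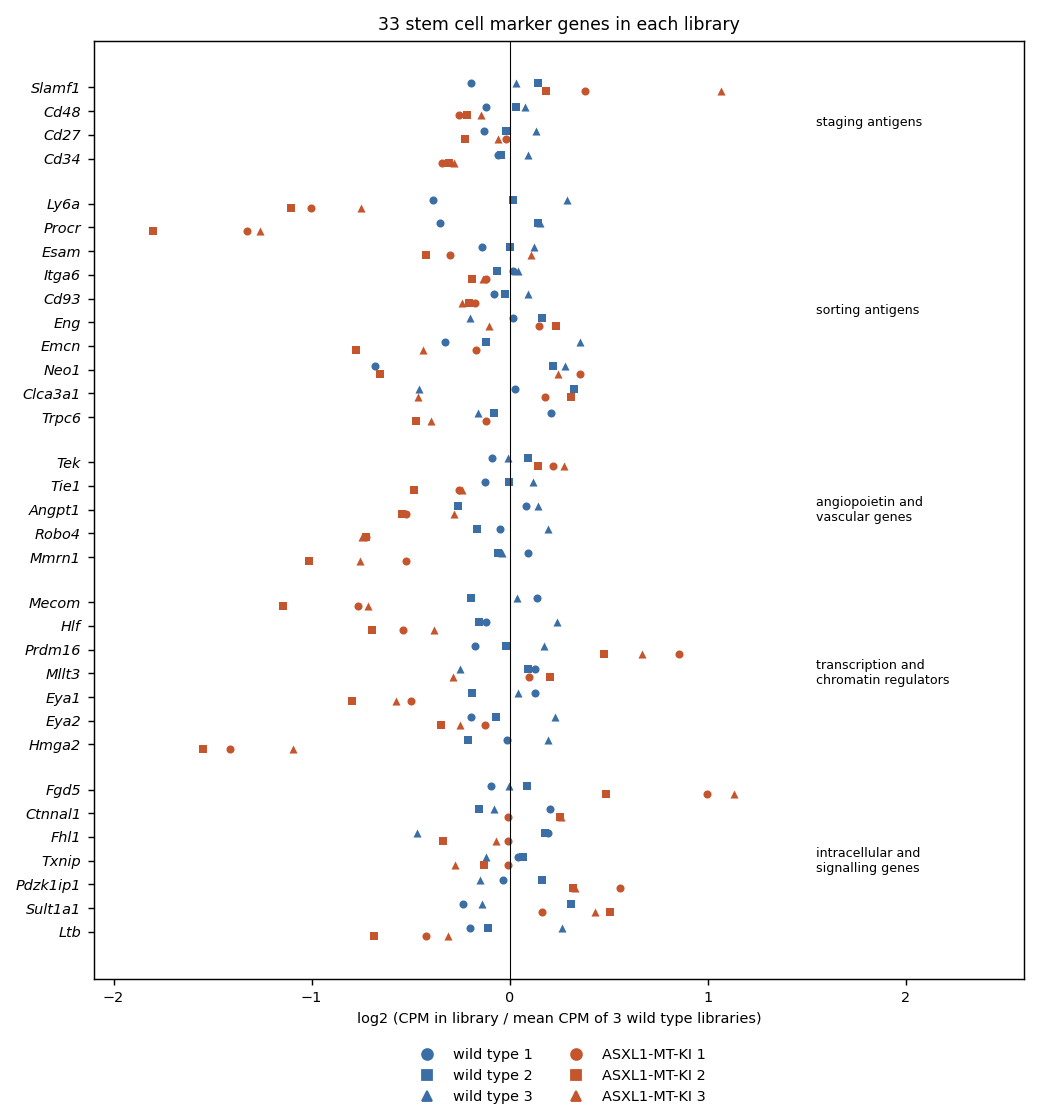
Each row is 1 of the 33 genes, grouped by role, and each point is 1 library, plotted as the log2 ratio of its CPM (TMM-scaled counts per library of standard size) to the mean of the 3 wild type libraries. Knock-in points lie left of all wild type points for 15 genes, right of them for 5, and overlap them for 13.

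In 15 of the 33 genes every knock-in library was below every wild type library, and in 5 every one was above. Among all genes tested, 17.2% were separated downwards and 18% upwards, 35.2% together. The 5 separated upwards were Slamf1, Tek, Prdm16, Fgd5 and Pdzk1ip1, of which 2 passed the test.

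The starts of 7 markers that passed are shown as examples of both directions that differ in how many CG dinucleotides precede them. RefSeq (GRCm38.p6) gave 29 starts for 26 of the 33 genes. Entries for Ly6a, Esam, Itga6, Cd93, Angpt1, Eya1 and Eya2 were not used here. Each sequence is the longest stretch without annotated exon bases in the 250 bases before the start, 5′ to 3′ on the strand of the gene, with CG dinucleotides in capitals. They are Fgd5 (chr6:91978715-91978877, plus strand), Prdm16 (chr4:154636874-154637123, minus), Procr (chr2:155750967-155751116, plus), Hmga2 (chr10:120476470-120476719, minus), Mecom at its long start (chr3:30509823-30510009, minus), Hlf (chr11:90390918-90391167, minus) and Robo4 (chr9:37401722-37401896, plus).
Fgd5: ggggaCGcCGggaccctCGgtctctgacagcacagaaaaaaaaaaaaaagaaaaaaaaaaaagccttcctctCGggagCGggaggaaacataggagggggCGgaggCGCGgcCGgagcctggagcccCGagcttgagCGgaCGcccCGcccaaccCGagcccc
Prdm16: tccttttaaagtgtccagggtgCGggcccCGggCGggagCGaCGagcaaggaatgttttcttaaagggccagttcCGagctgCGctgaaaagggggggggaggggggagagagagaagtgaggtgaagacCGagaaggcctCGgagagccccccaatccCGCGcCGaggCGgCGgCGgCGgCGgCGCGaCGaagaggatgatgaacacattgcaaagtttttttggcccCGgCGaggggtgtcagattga
Procr: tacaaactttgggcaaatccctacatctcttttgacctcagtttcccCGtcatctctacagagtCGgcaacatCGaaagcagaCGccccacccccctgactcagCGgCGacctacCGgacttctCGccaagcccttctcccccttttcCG
Hmga2: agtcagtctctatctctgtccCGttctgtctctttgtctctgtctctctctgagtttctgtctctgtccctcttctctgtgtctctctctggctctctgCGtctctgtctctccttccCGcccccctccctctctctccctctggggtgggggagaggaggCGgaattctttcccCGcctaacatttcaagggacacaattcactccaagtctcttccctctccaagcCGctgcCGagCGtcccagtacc
Mecom: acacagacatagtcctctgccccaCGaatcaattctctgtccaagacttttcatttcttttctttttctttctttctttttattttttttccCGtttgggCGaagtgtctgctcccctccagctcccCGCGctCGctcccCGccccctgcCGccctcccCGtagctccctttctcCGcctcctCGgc
Hlf: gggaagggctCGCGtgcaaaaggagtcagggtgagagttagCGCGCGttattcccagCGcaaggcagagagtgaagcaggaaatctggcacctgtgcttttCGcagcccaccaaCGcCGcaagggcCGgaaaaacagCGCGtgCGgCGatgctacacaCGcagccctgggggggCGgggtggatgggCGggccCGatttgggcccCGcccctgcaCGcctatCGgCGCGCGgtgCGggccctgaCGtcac
Robo4: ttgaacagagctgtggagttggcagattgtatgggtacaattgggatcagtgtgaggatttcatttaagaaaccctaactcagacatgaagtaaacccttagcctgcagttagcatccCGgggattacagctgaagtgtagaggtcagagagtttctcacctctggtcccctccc
In the full 250 bases, Fgd5 and Prdm16, which rose, had 31 and 22 CG dinucleotides. Among the genes that fell, Hlf had 26, Mecom 14 at its long start and 8 at the other, Procr 13, Hmga2 8, Cd34 6, Tie1 6, Mmrn1 3 and Robo4 2. Part of these bases is annotated exon: 87 for Fgd5, 100 for Procr, 212 for Tie1 and 75 for Robo4. For Mecom it was 63 at the long start and all 250 at the other. The longest stretch without exon bases held 14 CG dinucleotides for Fgd5, 9 for Procr and 1 for Tie1. Starts of markers that did not pass had from 0 (Sult1a1) to 45 (Neo1) CG dinucleotides. The median was 6 over the 29 starts and 6 over 32851 starts of all genes.

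Motifs of 5 factor families were searched on both strands of these 250 bases, and no matches overlapped. The GATA letters AGATAA were in 0 of 29 starts and in 9.99% of all starts. The ETS letters CCGGAA were in 10.3% of the marker starts and 12% of all starts. The RUNX letters TGTGGT were in 6.9% and 14%. The E-box CAGCTG was in 13.8% and 13%. The AP-1 letters TGACTCA were in 3.45% and 4.46%. In the stretches printed, Procr held the AP-1 letters from 154 bases before its RefSeq start, Robo4 the E-box from 123 and Hlf the ETS letters from 125. The gene bounds given below are from GENCODE M21, and for Procr and Robo4 they begin upstream of these RefSeq starts. A match is a description of letters and not a binding site, and a window without one says nothing of the factor.

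The transcription and chromatin regulators had 4 of 7 genes lower, 1 higher and a median log2 fold change of -0.53. The shares to set beside the counts of each role group are 7.69% lower and 8.29% higher over all genes tested. Hmga2 (chromosome 10, 120361275 to 120476469 in mm10) encodes an architectural chromatin protein typical of fetal stem cells. The wild type libraries, in the order 1 to 3 used throughout, held 12.3, 10.7 and 14.2 CPM, and the knock-in libraries 4.67, 4.25 and 5.81 CPM. The highest knock-in library thus lay well below the lowest wild type library. The mean fell from 12.4 ± 1.73 to 4.91 ± 0.808 CPM (SD, n = 3 each; log2 fold change -1.34 ± 0.15, SE; adjusted p = 0.000489, edgeR).

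Mecom (chromosome 3, 29951296 to 30548008), which encodes EVI1 and its longer PR-domain form, was at 8.39, 6.65 and 7.83 CPM in wild type and at 4.48, 3.45 and 4.65 CPM in knock-in. Its log2 fold change was -0.86 ± 0.15 (adjusted p = 0.00467, edgeR). Counts per gene do not separate its forms. Hlf (chromosome 11, 90336536 to 90390895), a PAR-type leucine zipper factor of stem cells, went from 42.6, 41.6 and 54.7 CPM to 31.9, 28.6 and 35.6 CPM. It fell by 0.53 on the log2 scale (adjusted p = 0.0184), and the call was lost without knock-in replicate 1 or 2 (adjusted p = 0.058 and 0.0562). Eya1, a phosphatase and transcriptional coactivator, fell from 8.56, 6.87 and 8.06 to 5.54, 4.51 and 5.26 CPM, by 0.62 on the log2 scale (adjusted p = 0.0121). That call was lost without wild type replicate 1 (adjusted p = 0.0599). The groups were separated for all 3 of these genes.

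Prdm16 (chromosome 4, 154316125 to 154636873), a zinc finger regulator related to Mecom and needed for stem cell maintenance, moved the other way. It was at 5.99, 6.67 and 7.64 CPM in wild type and at 12.3, 9.42 and 10.8 CPM in knock-in, with no overlap. The log2 fold change was 0.68 ± 0.13 (adjusted p = 0.00795, edgeR). Mllt3, which encodes the elongation factor subunit AF9, and Eya2 did not pass. Mllt3 stood at 36.9 ± 5.15 and 37.4 ± 6.36 CPM (log2 fold change 0.02, 95% interval -0.32 to 0.35), and Eya2 at 7.79 ± 1.21 and 6.61 ± 0.512 CPM (95% interval -0.53 to 0.06).

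Of the 10 other sorting antigens, 3 were lower and 7 did not pass, and they included Procr, the largest fall of the 33 genes. Procr (chromosome 2, 155751117 to 155755471) encodes the endothelial protein C receptor EPCR, an antigen of dormant stem cells. It had 158, 222 and 198 counts in wild type libraries and 84, 57 and 76 in knock-in libraries. This was a fall from 4.39 ± 0.819 to 1.61 ± 0.309 CPM, a log2 fold change of -1.44 ± 0.20 (adjusted p = 0.00179, edgeR), and the groups were far apart. Ly6a (chromosome 15, 74994877 to 74998031), which encodes Sca-1, had 97, 128 and 137 counts against 66, 58 and 68. It fell by 0.94 on the log2 scale (adjusted p = 0.0154), but without knock-in replicate 1 or 2 the adjusted p was 0.0507 and 0.0609. Ly6a belongs to a family of close paralogs on chromosome 15, and how shared reads were counted is not known here.

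Cd93, a C-type lectin-like receptor of early progenitors, was at 368, 383 and 414 CPM in wild type and at 344, 337 and 329 CPM in knock-in. Its fall of 0.21 on the log2 scale (adjusted p = 0.0295) was lost without wild type replicate 2 (adjusted p = 0.0572), without any of the knock-in libraries (up to 0.0891), with numbers 1 and 2 only (0.0661) and with total counts (0.0904). The other 7 sorting antigens did not pass. Itga6, a laminin-binding integrin subunit, was separated between groups, at 96.9 to 104 CPM in wild type and 88.9 to 93.4 CPM in knock-in (adjusted p = 0.0825, or 0.0154 with the block). Trpc6, a cation channel gene, had an adjusted p of 0.18, or 0.0479 with the block, at a log2 fold change of -0.32. Esam, an adhesion molecule (4.36 ± 0.395 and 3.83 ± 0.767 CPM), Emcn, a sialomucin (2.35 ± 0.589 and 1.73 ± 0.356 CPM), Eng, a TGF-beta coreceptor (112 ± 14 and 120 ± 14.1 CPM), and Clca3a1, a chloride channel regulator (7.88 ± 2.07 and 8.14 ± 2.14 CPM), had overlapping groups. Neo1, a receptor of netrins and RGM proteins, had 7 to 15 counts a library, and the 95% interval of its log2 fold change ran from -0.88 to 0.997, so only large differences were detectable at this depth.

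**Figure D2:**
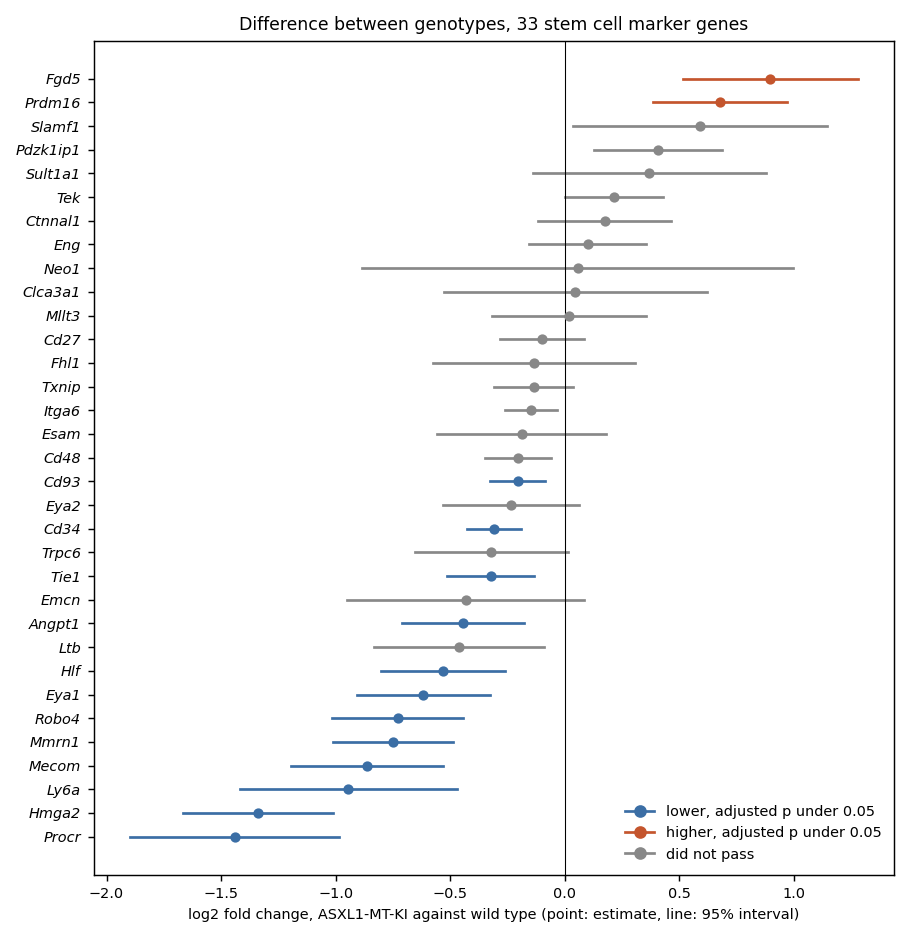
Points are log2 fold changes of knock-in against wild type for the 33 genes, with 95% intervals as lines, sorted by size. Fgd5 (0.90) and Prdm16 (0.68) passed as higher, 12 genes from Cd93 (-0.21) to Procr (-1.44) passed as lower, and Neo1 has the widest interval.

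The staging antigens, which separate stem cells from their first descendants, had 1 of 4 lower and none higher. Cd34 (chromosome 1, 194938819 to 194961279) encodes a sialomucin that is low on long-term stem cells of adult mice and present on multipotent and myeloid progenitors. It was at 361, 364 and 401 CPM in wild type and at 296, 304 and 309 CPM in knock-in, without overlap (log2 fold change -0.31 ± 0.053, adjusted p = 0.00449, edgeR). Cd48, a receptor carried by most progenitors and absent from the stem cell fraction, was at 57.3 to 65.6 and at 52.1 to 56.2 CPM. Its log2 fold change of -0.20 did not pass (adjusted p = 0.0582) but did with the block (0.00507), in DESeq2 (0.0426), without the filter on low counts (0.0458) and without wild type replicate 1 (0.0404).

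Slamf1, which encodes the stem cell antigen CD150, had 61, 77 and 63 counts in wild type and 95, 78 and 132 in knock-in. All 3 knock-in libraries were above wild type in CPM, but library 2, at 1.73 CPM, was barely above the wild type maximum of 1.68. The log2 fold change of 0.59 (95% interval 0.036 to 1.14) did not pass (adjusted p = 0.141) and did so narrowly with the block (0.048). Without knock-in replicate 3, the highest library, it was 0.28 (adjusted p = 0.43). Cd27, a TNF receptor family member, was at 49.4 ± 4.56 and 46.1 ± 3.47 CPM, with overlapping groups.

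Of the 5 angiopoietin and vascular genes, 4 were lower and Tek did not pass, with a median log2 fold change of -0.44. Angiopoietin 1, the product of Angpt1, is the ligand of TIE2, encoded by Tek, and TIE1 is the coreceptor of TIE2. In the marrow this pathway is known for holding stem cells at rest. Angpt1 (chromosome 15, 42424723 to 42676977) was at 161, 127 and 168 CPM in wild type and at 106, 104 and 125 CPM in knock-in, so that the closest libraries nearly touched. It fell by 0.44 on the log2 scale (adjusted p = 0.0371). The call was lost without wild type replicate 1 or 3 or knock-in replicate 1 or 2 (adjusted p up to 0.122), with numbers 1 and 2 only (0.0525) and with total counts (0.0624). Tie1 went from 43, 46.9 and 50.9 to 39.3, 33.6 and 39.7 CPM. This fall of 0.32 on the log2 scale (adjusted p = 0.0305) was lost without wild type replicate 2 or 3 or knock-in replicate 2 (up to 0.101) and with total counts (0.0678). Tek itself was slightly higher in each knock-in library, at 8.91 to 9.76 CPM against 7.58 to 8.59 CPM, and did not pass (log2 fold change 0.21, adjusted p = 0.166).

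Robo4 and Mmrn1 passed as lower in each of the 15 alternatives tried. Robo4 (chromosome 9, 37401897 to 37415115), a roundabout receptor, was at 6.67, 6.15 and 7.88 CPM in wild type and at 4.17, 4.18 and 4.12 CPM in knock-in. Its log2 fold change was -0.73 ± 0.13 (adjusted p = 0.00489, edgeR). Mmrn1 (chromosome 6, 60924976 to 60989378), the gene of the platelet and endothelial protein multimerin, was at 20.6, 18.6 and 18.9 CPM and at 13.5, 9.60 and 11.5 CPM. The log2 fold change was -0.75 ± 0.12 and the adjusted p 0.0029 by edgeR. A list of 9 further genes held angiopoietin pathway genes and, beside them, angiopoietin-like genes. Of 6 tested, 2 rose, both of them angiopoietin-like genes, and 2 fell, beside 8.29% and 7.69% of all genes. Angpt2 and Angptl1 did not pass (log2 fold changes -0.15 and -0.60). Angptl2, which encodes a secreted angiopoietin-like protein, rose from 2.65 ± 0.181 to 10.2 ± 0.862 CPM, a log2 fold change of 1.95 (adjusted p = 2.5e-05), and Angptl4 rose by a log2 fold change of 0.45. Foxo1, a forkhead factor restrained by AKT, fell by 0.43 on the log2 scale. Dok2, an adaptor that binds TIE2, fell by 0.50, with an adjusted p of up to 0.0721 after removing wild type 1 or 2 or knock-in 1 or 2.

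Of the 7 intracellular and signalling genes, 1 was higher and none lower, with a median log2 fold change of 0.17. Fgd5 (chromosome 6, 91978878 to 92076004), an exchange factor for CDC42 whose locus drives a widely used stem cell reporter, had 158, 179 and 149 counts in wild type and 352, 233 and 334 in knock-in. In CPM the wild type libraries were tight, at 3.44 to 3.90, and the knock-in libraries were spread above them, at 5.15 to 8.05. The log2 fold change was 0.90 ± 0.17 (adjusted p = 0.00764, edgeR). Ctnnal1, the alpha-catulin gene behind another stem cell reporter, did not pass at 7.28 ± 0.979 and 8.22 ± 0.854 CPM (95% interval -0.12 to 0.46).

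Pdzk1ip1, a small membrane protein gene of stem cells, was separated upwards, from 5.30 to 6.59 CPM to 7.32 to 8.65 CPM. Its log2 fold change of 0.41 did not pass (adjusted p = 0.0544) but did with the block (0.0123), in DESeq2 (0.0406), without wild type replicate 2 (0.0421) and with total counts (0.033). Txnip, an inhibitor of thioredoxin and glucose uptake linked to stem cell rest, was at 134 ± 9.43 and 122 ± 11.3 CPM (adjusted p = 0.273, or 0.0243 with the block). Ltb, the lymphotoxin beta gene, had separated groups at 4.12 to 5.67 and 2.94 to 3.81 CPM (adjusted p = 0.0915, or 0.0162 with the block). Fhl1, a LIM domain protein gene (3.54 ± 0.849 and 3.24 ± 0.376 CPM), and Sult1a1, a sulfotransferase gene (0.949 ± 0.20 and 1.23 ± 0.149 CPM), overlapped between groups.

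Levels of the 33 genes spanned a wide range. To compare genes, CPM was divided by the exon length of the gene in GENCODE M21, and 96.1% of tested genes had a single match. On this scale of CPM per kb, 10 markers were above the wild type median of tested genes, 5.98 CPM per kb, and 23 below. Cd93 led at 58.1 ± 3.54 CPM per kb, followed by Cd48 at 52.3 ± 3.67 and Cd34 at 51.5 ± 3.04, and neighbours among these 3 overlapped between libraries. Txnip, Angpt1, Eng, Cd27, Itga6, Tie1 and Hlf came next. Procr and Ly6a, at 2.16 ± 0.403 and 2.29 ± 0.524 CPM per kb, were neighbours in the order with overlapping libraries. Mecom (0.614 ± 0.0714), Fgd5 (0.584 ± 0.0367), Emcn (0.434 ± 0.109), Slamf1 (0.247 ± 0.0288) and Neo1 (0.028 ± 0.0091) closed the order. Of 32 neighbouring pairs in this order, 10 were separated in all wild type libraries and the other 22 were not.

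In knock-in the order of levels changed mostly in its lower part. Fgd5 moved from place 30 to place 21 and Prdm16 from 27 to 20, while Procr went from 17 to 26, Hmga2 from 19 to 28 and Robo4 from 22 to 27. The first 10 places were held by the same genes, with Angpt1 and Eng exchanged. Prdm16 was at 0.726 ± 0.0887 CPM per kb in wild type and 1.16 ± 0.152 in knock-in, and its relative Mecom at 0.614 ± 0.0714 and 0.338 ± 0.0523.

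**Figure D3:**
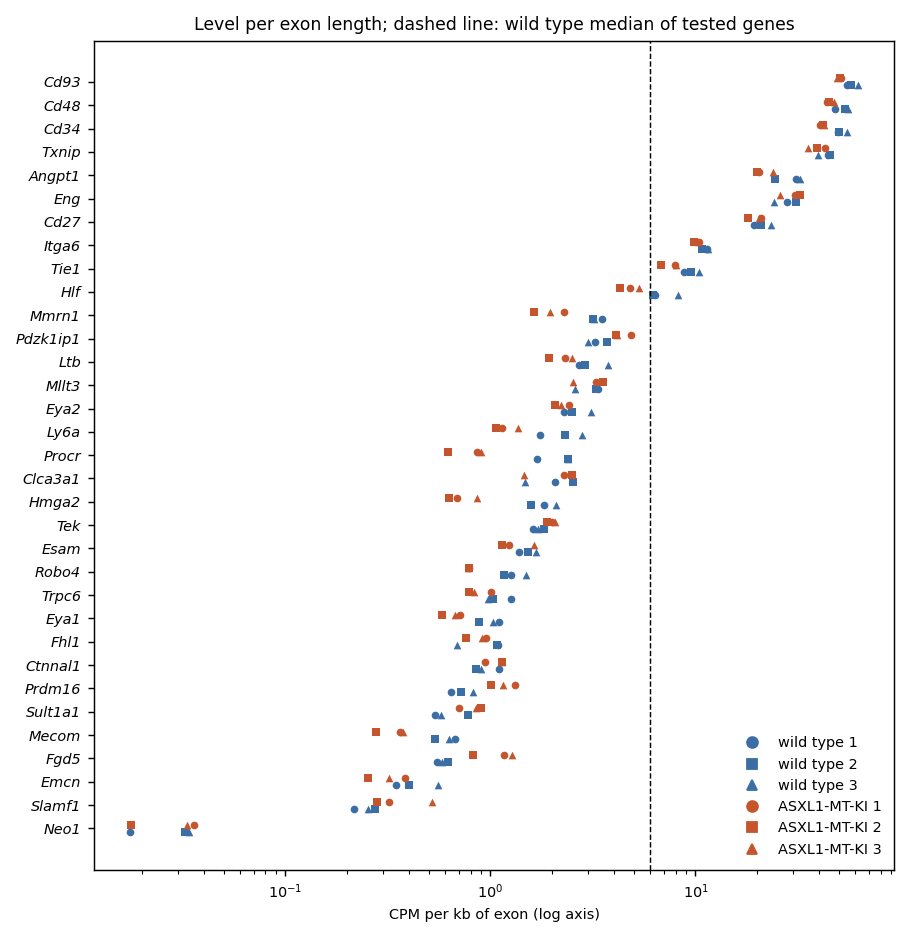
Points are the level of each gene in each library as CPM per kb of exon, on a log axis, ordered by the wild type mean; the dashed line is the wild type median of tested genes, 5.98. The 10 highest markers lie above the line, and blue (wild type) and orange (knock-in) points part most for Procr and Hmga2.

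The spread between libraries of a group was larger for the markers than for all genes. The median coefficient of variation of the 33 was 12.5% in wild type and 11.8% in knock-in, against 7.48% and 6.14% over all genes tested. This comparison was not matched for level, and 23 of the 33 lay below the wild type median of tested genes in CPM per kb. Robo4 in knock-in was the tightest at 0.741%. With 200, 189 and 171 counts in these libraries, counting noise alone exceeds this value, so it does not measure the spread of the gene. Slamf1 and Neo1 in knock-in varied by 33.9% and 33.8%, and Clca3a1 by 26.3% in both groups. Summed over the 33 genes, CPM was 1603 to 1699 in wild type and 1390 to 1425 in knock-in. Cd34 and Cd93 held 44.9% to 48% of this sum, and the other 31 genes summed to 860 to 884 and 749 to 785 CPM.

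Some markers share exon bases with genes on the other strand, and the kit named in the labels does not mark strand. The shared part was 2.07% of Hmga2 exon bases (with 1700006J14Rik), 0.652% of Mecom (Mecomos), 1.17% of Prdm16 (B230104I21Rik), 2.03% of Cd34 (Gm16897, 90 to 251 counts) and 14.2% of Angpt1 (Gm17473). It was 19.4% of Txnip (Gm15441, 9 to 22 counts), 4.36% of Clca3a1 (Gm34866), 4.05% of Sult1a1 (Sgf29) and 1.51% of Eng, whose partner Fpgs had 2259 to 3426 counts. Cd27 shared 5.54% with Mir8113 on its own strand. Procr, Fgd5, Hlf, Robo4, Mmrn1, Ly6a, Eya1, Tie1 and Cd93 shared none.

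A further list of 61 stem cell genes outside the 33, chosen with earlier results of these data known, went both ways. Of 57 tested, 15 fell and 12 rose, beside 7.69% and 8.29% of all genes, with a median log2 fold change of -0.03. With the block 17 fell and 19 rose, beside 13.8% and 16.7% of all genes. Of those with the lowest p, Gimap6, a GTPase gene, fell by 1.40, Rora, a nuclear receptor gene, by 1.34, and Cxcr4, the receptor that retains stem cells in the marrow, by 0.54 on the log2 scale. The named genes that rose were picked after their values were seen. Thy1, a surface antigen kept at low level on mouse stem cells, rose from 2.08 ± 0.28 to 4.69 ± 0.97 CPM, and Cdkn1c, the cyclin-dependent kinase inhibitor p57 of resting stem cells, from 1.33 ± 0.312 to 3.24 ± 0.233 CPM. Ryk, a Wnt receptor gene, rose from 10.1 ± 2.05 to 24.4 ± 2.72 CPM, Hoxa9 from 23.1 ± 1.20 to 36.4 ± 2.91 CPM and Krt18 from 26.8 ± 0.995 to 37.5 ± 2.48 CPM. Hoxb5 had 9, 8 and 7 counts in wild type and 48, 16 and 30 in knock-in, and its call was lost without wild type replicate 1 or knock-in replicate 1 (adjusted p up to 0.065).

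**Figure D4:**
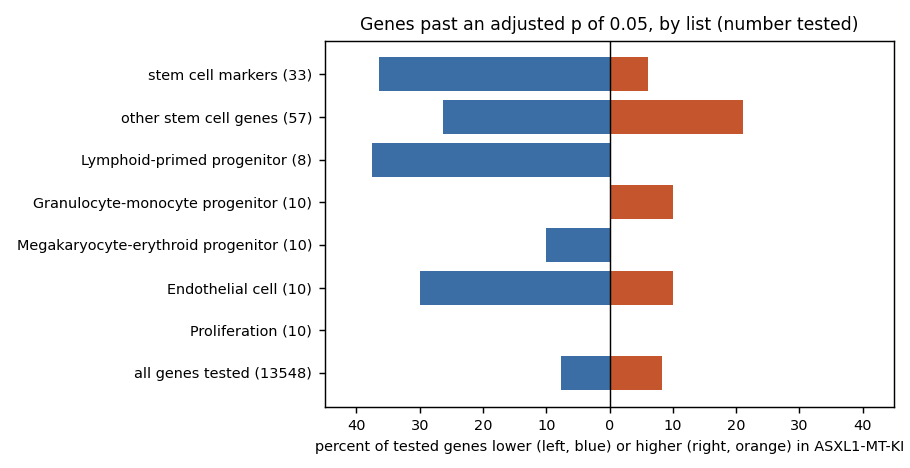
Bars give the percent of tested genes in each list that passed as lower (left, blue) or higher (right, orange) in knock-in, with the number tested in brackets. The stem cell markers had 12 lower and 2 higher, the further stem cell genes 15 and 12, and the proliferation genes none.

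The labelled gate was compared with its markers. Kit was at 375 to 453 CPM in wild type and 373 to 396 CPM in knock-in (adjusted p = 0.446). Of the T and NK cell genes, Cd3g had 0 counts in each library, Cd3e 3 in 1 wild type library only, Cd3d 1 to 9, Gzma 4 to 9 and Klrb1c 28 to 85, while Nkg7 was at 144 to 190 CPM. Asxl1 rose from 170 ± 5.43 to 320 ± 8.71 CPM, in each knock-in library above each wild type library, and counts per gene do not separate the alleles. Lymphoid-primed progenitor genes moved beside the markers: 3 of 8 fell and 0 rose, beside 7.69% and 8.29% of all genes tested. Their summed CPM was 561 to 678 in wild type and 464 to 520 in knock-in. Flt3 and Satb1 fell by 0.65 and 0.49 on the log2 scale. Dntt fell by 1.19, but the block gave an adjusted p of 0.0935, libraries 1 and 2 alone 0.0993, and leaving out wild type 1, wild type 3 or knock-in 2 up to 0.0622. Granulocyte-monocyte genes (1 of 10 rose, Ly6c2 by 0.28, lost on leaving out any of 3 libraries, wild type 1 and knock-in 1 and 2) and megakaryocyte-erythroid genes (1 of 10 fell, Itga2b by 0.40, with an adjusted p of 0.0537 from numbers 1 and 2 only) had overlapping sums, as did the proliferation list, with 0 of 10 called, at 3642 to 4095 and 3868 to 4081 CPM. With the block 1 proliferation gene, 4 granulocyte-monocyte genes and 7 megakaryocyte-erythroid genes were higher. Over all genes tested the block called 16.7% higher and 13.8% lower. Of 5 B cell genes tested, 2 fell, Cd79a and Vpreb1, by 1.04 and 1.24. Cd79b, at a mean of 17.3 CPM in wild type and 20.1 CPM in knock-in, did not pass. The B cell list had overlapping sums, at 20.74 to 24.05 CPM in wild type and 20.66 to 23.82 CPM in knock-in. Of 4 dendritic cell genes tested, 1 rose, H2-Ab1 by 0.55, and 3 did not pass, among them H2-Aa (log2 fold change 0.016). With the block 4 B cell genes were lower and 1 higher, 4 neutrophil and 4 macrophage genes were higher, and 1 T and NK gene and 1 mast cell or basophil gene were lower. Without it no tested gene of the neutrophil, macrophage, T and NK, mast cell and basophil or stromal lists passed, and macrophage genes summed to 24.5 to 38.8 and 36.7 to 69.9 CPM.

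Several markers are also expressed by endothelial cells, so 12 endothelial genes were read beside them. The list is not separate: Emcn is one of the 33 markers, and Vwf is among the further stem cell genes. Of 10 tested, Ecscr, Pecam1 and Egfl7 were lower and Plvap higher, beside 7.69% and 8.29% of all genes. Each of these calls was lost on leaving out wild type 1, knock-in 1 or knock-in 2. The list summed to 230 to 251 CPM in wild type and 204 to 242 CPM in knock-in. The defining gene Cdh5, which encodes VE-cadherin, was at 0.109 to 0.394 and 0.0442 to 0.313 CPM, and Sox17 had 2 counts over the wild type libraries and 0 over the knock-in libraries. The part of lymphoid-primed, macrophage or endothelial cells in the marker values was not tested.

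**Figure D5:**
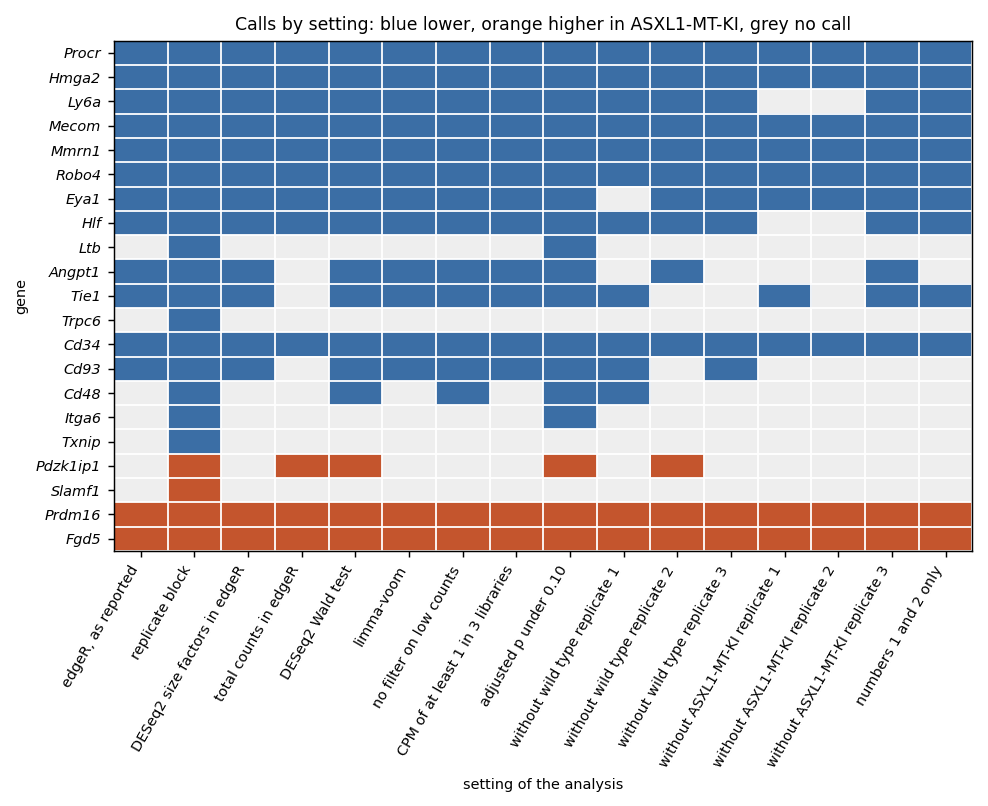
Rows are the 21 markers called in at least 1 setting and columns the 16 settings, with blue for lower, orange for higher and grey for no call. Procr, Hmga2, Mecom, Mmrn1, Robo4, Cd34, Prdm16 and Fgd5 keep their colour in each column. The fold of at least 1.5 is not drawn.

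Calls for 8 of the 14 markers passed in each of the 15 alternatives, among them the removal of each of the 6 libraries in turn: Procr, Hmga2, Mecom, Mmrn1, Robo4, Cd34, Prdm16 and Fgd5. A fold of at least 1.5 was not counted among the 15. Cd34, lower by 1.24-fold, did not reach it, and the other markers named here did. The alternatives include a looser adjusted p, under 0.10, on the same fit. A marker that passed could not fail it, so it does not add to this stability. The block added 7 calls, Slamf1 and Pdzk1ip1 as higher and Cd48, Itga6, Trpc6, Txnip and Ltb as lower.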

How the data were processed

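The deposited table holds whole-number counts for each gene symbol and library, without normalization. HISAT2 2.0.4 and mm10 are named in the submitters' processing notes. How reads were assigned to genes, with which annotation and strand setting, is not given in the sources used here. Columns were matched to samples by genotype and number. The members, the role groups and the further lists were chosen with earlier results of these data known, so every marker is named and no test over the list was made.

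Counts were analysed with edgeR 4.0.16 in R 4.3.3: filterByExpr (minimum 10 counts), a robust quasi-likelihood test of genotype without covariates, TMM factors of 0.972 to 1.03, and p-values adjusted by Benjamini-Hochberg across 13548 genes. Standard errors are the log2 fold change over the root of the F statistic. The biological coefficient of variation was 8.78%. The pipeline was tested on simulated data. Context lists name up to 4 members past the threshold by lowest p. Beyond this rule, the further stem cell genes that rose were chosen after their values were seen. A result that this rule would name is not reported here. The p-values measure the spread between these libraries, and no source says whether each was 1 animal.

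The replicate numbers come from the sample titles. Deviations from the group means correlated across genes between same-numbered libraries at 0.267, 0.177 and 0.411, all above 0.1. The second wild type and first knock-in library also correlated, at 0.166, and no label states the pairing. The main test did not treat the numbers as pairs, so its p-values and intervals leave this correlation out. The fit with the replicate number as a block was run as an alternative, and its calls are given beside the main ones. Alternatives were this block, other scalings and filters, DESeq2 1.42.0, limma-voom (limma 3.58.1), other thresholds and leaving out libraries. Figures were drawn with matplotlib 3.10.9.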

Additional observations from a re-analysis of the deposited data

How the results depend on the processing

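Over the 33 markers and their alternatives, 447 of 494 values kept their direction and their side of the threshold, 21 lost the call, 17 gained it and 9 changed sign. All 9 sign changes belong to genes that did not pass. The values include an adjusted p under 0.10 on the same fit, where a marker that passed could not lose its call. Under that looser threshold Cd48, Itga6, Pdzk1ip1 and Ltb gained the call. Left-out libraries moved the log2 fold change of Neo1 between -0.20 and 0.30, of Clca3a1 between -0.13 and 0.24 and of Mllt3 between -0.092 and 0.15. Kit, no marker of the list, was at 0.0055 with numbers 1 and 2 only. With the replicate block, 2256 genes were higher and 1876 lower, 16.7% and 13.8% of those tested, and 4 markers were higher and 17 lower. Among genes named in the report the block changed no call beside those given there. A fold of at least 1.5 left 504 genes higher and 383 lower, and 2 markers higher and 7 lower. On leaving out 1 library, genes higher ran from 534 to 1216 and genes lower from 587 to 1041, markers higher from 2 to 3 and markers lower from 7 to 11. Neo1 was not tested under the filter at CPM 1. The cause was not tested. Neo1, with the fewest counts, had the widest interval, and smaller differences in it were not detectable at this depth.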

Other observations

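In several markers the libraries numbered 3 of both groups stood apart from numbers 1 and 2 in the same direction. On a log2 scale of CPM with 0.1 added, Clca3a1 was lower in them by -0.66, Mllt3 by -0.40 and Eng by -0.29, none of which passed between genotypes. Slamf1 was higher in them by 0.40, Ly6a by 0.37 and Hmga2 by 0.34. The median over the 33 markers was 0.13, against 0.01 over all genes tested. Clca3a1 shows the pattern plainly: wild type libraries held 8.02, 9.88 and 5.74 CPM in the order 1 to 3, and knock-in libraries 8.92, 9.78 and 5.71 CPM. Slamf1 differed in the knock-in group, where library 3 held 3.18 CPM against 1.98 and 1.73, while wild type library 3 lay between the other two. In the same libraries megakaryocyte-erythroid genes were lower by a median of -0.46 and macrophage genes higher by 1.14, and the part of these cells in the marker values was not tested.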
